A study of Sus scrofa with 10 samples.

Results

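Ovary and subcutaneous adipose tissue of the pig were compared through the genes of their stroma, the connective tissue that carries the specialised cells of an organ. The pigs were of the Northeast Min breed and 60 days old, and the study sequenced RNA of 9 tissues and of 1 mixture of tissues, 10 RNA-seq libraries in all. No treatment or genotype is named in the labels, the ovary and the adipose library share breed and age, and nothing in the labels says whether they came from the same animal. Each tissue has 1 library, so the differences have no replicate check, no test was run, and sizes only are given. The genes were chosen as 728 members of 26 lists: 8 lists of extracellular matrix genes and 18 of growth factors, their receptors and antagonists, signalling pathways and stromal transcription factors. Genes of oocytes and of lipid metabolism were kept out of these lists, except that the receptor gene KIT, also counted here as an oocyte marker, stayed in. Of the 728, 709 were matched in the deposited table of 25880 genes, and 424 reached 5 FPKM (fragments per kilobase of transcript, scaled to the mapped fragments of the library) or more in either tissue, among 9508 genes that did.

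The matrix of connective tissue is laid down mainly by fibroblasts and related mesenchymal cells. Fibrillar collagens give it strength, elastic fibres give it recoil, basement membranes separate epithelia, vessels and fat cells from it, and matricellular proteins and proteases tune how cells meet it. In the prepubertal ovary the stroma surrounds the follicles, and follicle cells and stroma exchange ligands of the TGF-beta, WNT, hedgehog and retinoid pathways. In subcutaneous fat a thin stroma wraps each adipocyte and holds the vessels and the adipocyte precursors.

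A difference below is log2(FPKM + 1) in ovary minus that in adipose tissue, so a positive value means higher in ovary. A difference of 2 or more either way, which is 4-fold in FPKM + 1, was called. Across all 9508 genes the median difference was 0.52 toward ovary, with 1067 genes called higher in ovary (11.2%) and 400 called higher in adipose tissue (4.21%). The share of calls toward ovary was 72.7% on the deposited scale, 50.3% after median-of-ratios scaling, 51.6% after quantile normalisation and 54.9% with the median of all genes set to 0. List medians are therefore also given relative to the median of all genes. Summed FPKM was 307492 in ovary and 301396 in adipose tissue, and 8808 and 6925 genes reached 5 FPKM. From the spacing of low values in short genes, and if the smallest step is a single fragment, 1 fragment on a transcript of 1 kb was worth 0.0845 FPKM in ovary and 0.0558 in adipose tissue, which makes the adipose library 1.52 times deeper.

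Among the 424 members at 5 FPKM or more in either tissue, 103 were called higher in ovary (24.3%, against 11.2% of all genes) and 51 higher in adipose tissue (12.0%, against 4.21%), and 270 were not called. The matrix and signalling genes differed in their balance of calls. Of 162 matrix genes, 27 were called higher in ovary and 30 in adipose tissue, with a median of 0.06, or -0.46 relative to all genes. Of 262 signalling genes, 76 were called higher in ovary and 21 in adipose tissue, with a median of 1.01, or 0.49 relative to all genes. With the median of all genes set to 0, these counts were 20 and 45 for matrix genes and 54 and 26 for signalling genes. Many calls rest on genes that passed the 5 FPKM filter in ovary alone, where a large difference is partly built in: 115 of the 262 signalling genes, 33 of the 162 matrix genes and 2583 of the 9508 genes did so. Over genes at 5 FPKM or more in both tissues, 10 of 110 signalling genes were called higher in ovary and 5 in adipose tissue, 7 and 15 of 107 matrix genes, and 134 and 145 of all 6225 genes. The medians over these genes were 0.09 for signalling genes, -0.16 for matrix genes and 0.29 for all genes, so both groups then lay below all genes. The highest tissue of the 9 was ovary for 54 of the 162 matrix genes and 112 of the 262 signalling genes (33.9% of all genes), and adipose tissue for 62 and 42 of them (8.88% of all genes). Of the matched members, 285 stayed under 5 FPKM in both tissues.

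**Figure D1:**
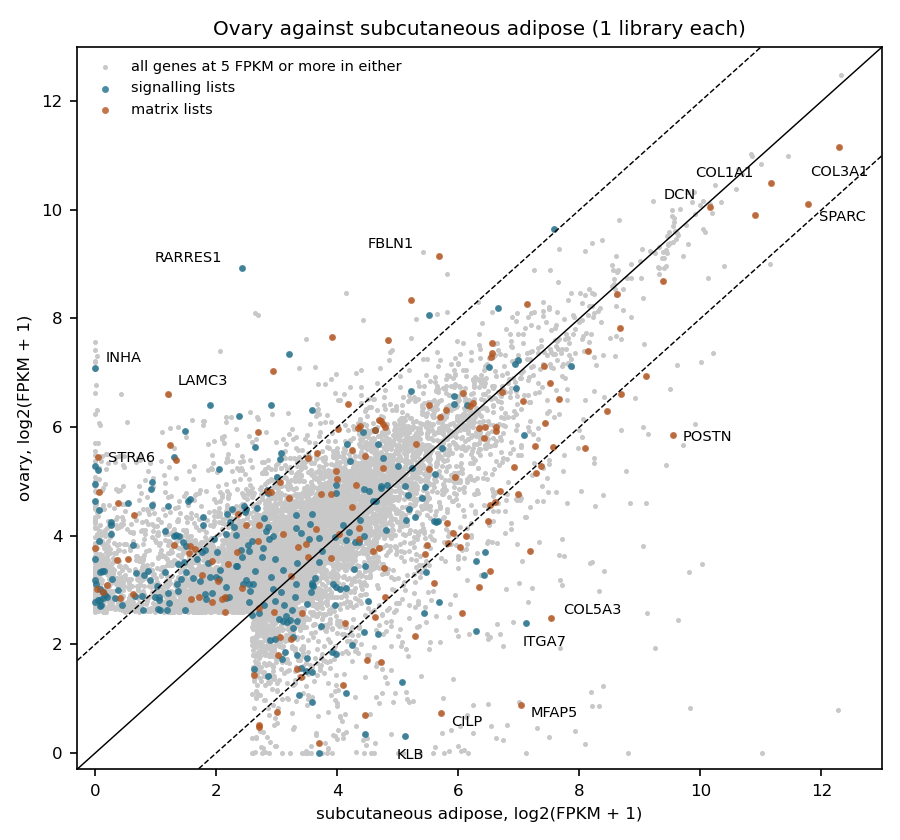
Each point is a gene at 5 FPKM or more in either library, plotted by log2(FPKM + 1) in subcutaneous adipose tissue (horizontal axis) and in ovary (vertical axis); orange points are matrix genes, blue points signalling genes, the solid line marks equality and the dashed lines a difference of 2. COL3A1 and SPARC lie at the upper right near or inside the lower dashed line, FBLN1, LAMC3 and RARRES1 far above the upper line, and POSTN, COL5A3 and MFAP5 far below the lower one.

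The 4 genes taken as marks of a shared stroma split into a pair that both tissues carried and a pair that each held to 1 side. COL3A1 encodes the chain of type III collagen and COL1A1 a chain of type I collagen, the main fibrils of soft connective tissue. COL3A1 stood at 2289 FPKM in ovary and 5000.3 in adipose tissue, against 824 in lung, 803 in longissimus dorsi, 647 in heart, 503 in psoas major, 366 in spleen, 186 in kidney and 71.6 in liver. COL1A1 stood at 1443 FPKM in ovary and 2284 in adipose tissue, against 355 in longissimus dorsi, 248 in lung, 231 in psoas major, 188 in heart, 104 in kidney, 80.7 in spleen and 23.8 in liver. For both genes adipose tissue was highest and ovary the next, well clear of the other 7 tissues. FBLN1, a fibulin of elastic fibres and basement membranes, stood at 564 FPKM in ovary and 50 in adipose tissue, which lay among lung (96.3), kidney (59.8), liver (46.8) and heart (40.8), and above psoas major (8.7), longissimus dorsi (7.86) and spleen (0.971). POSTN, a matricellular protein made by fibroblasts during matrix build-up, stood at 744 FPKM in adipose tissue and 57 in ovary, which lay between liver (84.3) and lung (48.3), with the other 5 tissues from 3.69 to 13.9. The differences were -1.13 for COL3A1, -0.66 for COL1A1, 3.47 for FBLN1 and -3.68 for POSTN. Of the 4 genes, COL3A1 and COL1A1 were thus high in both tissues, while FBLN1 was highest in ovary and POSTN in adipose tissue. The 4 were set as stromal marks beforehand, so their levels do not test whether the tissues form a stromal pair. In the deposited coordinates, on Sscrofa11.1, FBLN1 lies on chromosome 5 at 3838211 to 3927217, COL3A1 on chromosome 15 at 93556914 to 93596360, COL1A1 on chromosome 12 at 26379000 to 26397284 and POSTN on chromosome 11 at 13224959 to 13259033.

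**Figure D2:**
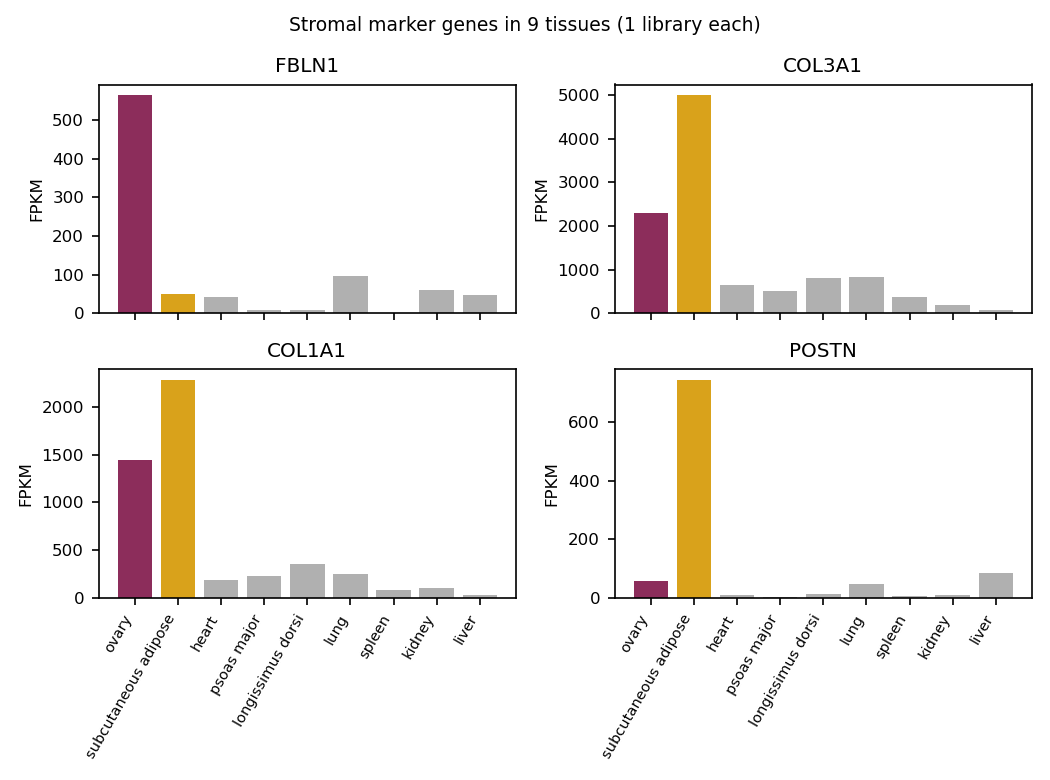
Bars give FPKM of FBLN1, COL3A1, COL1A1 and POSTN in each of the 9 tissue libraries, 1 library per tissue, with ovary in purple, subcutaneous adipose tissue in yellow and the other 7 tissues in grey. COL3A1 and COL1A1 were highest in adipose tissue and ovary, FBLN1 in ovary only (564 FPKM against at most 96.3 elsewhere), and POSTN in adipose tissue only (744 against at most 84.3).

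The defining genes of each tissue sat where the labels put them. 12 of 12 matched oocyte markers were higher in ovary, with summed levels of 567 FPKM in ovary and 5.39 in adipose tissue, and 7 of them, ZP3 among them, were listed at 0 in adipose tissue. 13 of 14 adipocyte markers were higher in adipose tissue, with sums of 66.3 and 11626 FPKM, and ADIPOQ, LEP and AQP7 were listed at 0 in ovary. The remaining adipocyte marker, CEBPA, was listed at 0 in all 9 tissues, as was the granulosa marker FOXL2, so a 0 in this table is not read as absence and no fold is given against it. In whole tissue, fewer cells of a type and less RNA per cell cannot be told apart.

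Other cell types differed between the pair as well. All 10 macrophage markers (sums of 85.2 FPKM in ovary and 415 in adipose tissue) and 10 of 12 endothelial markers (128 and 438) were higher in adipose tissue. Smooth muscle and pericyte markers leaned the other way, with 10 of 12 higher in ovary (692 and 272). Surface epithelium markers were higher in ovary in 8 of 8 cases (190 and 2.53, with UPK3B and LRRN4 listed at 0 in adipose tissue), and granulosa markers in 8 of 11 (242 and 21.1). Of 16 fibroblast markers, 4 were higher in ovary and 11 in adipose tissue (5266 and 9181, with CD248 listed at 0 in both). This list includes COL3A1, COL1A1, FBLN1 and POSTN, whose levels given above make up most of both sums. Its median level was 29.2 FPKM in ovary and 30.9 in adipose tissue. Liver plasma genes were higher in adipose tissue in 7 of 8 cases (59.6 and 308), red cell genes in 5 of 5 (25.9 and 127) and skeletal muscle genes in 6 of 6 (3.20 and 44.3). The part of these cell types in the differences that follow was not tested.

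The 8 matrix lists together took 7.92% of the summed FPKM of adipose tissue and 4.77% of that of ovary, the highest and the next highest of the 9 tissues. Lung followed at 2.73%, and the other 6 tissues lay between 0.962% and 1.41%. In adipose tissue COL3A1, SPARC, COL1A1 and COL1A2 led the matrix genes, and in ovary the order was COL3A1, COL1A1, SPARC and DCN. SPARC, a collagen-binding matricellular protein, stood at 3516 FPKM in adipose tissue and 1096 in ovary (lung, the next, had 603), and COL1A2, the other chain of type I collagen, at 1915 and 958 (longissimus dorsi had 317). Of the 162 matrix genes, 43 were higher in both ovary and adipose tissue than in each of the other 7 tissues, as were 28 of the 262 signalling genes and 6.39% of all genes. By a margin of 2-fold or more over every other tissue, 12 matrix and 7 signalling genes held this place, against 0.494% of all genes. The 12 matrix genes were COL1A1, COL1A2 and COL3A1, the type VI collagen chains COL6A1 and COL6A2, COL28A1, the proteoglycan DCN, the microfibril protein MFAP2, the filament-forming MATN2, the collagen chaperone FKBP10, the procollagen processing enhancer PCOLCE and the gelatinase MMP2. The 7 signalling genes were the BMP antagonist NBL1, the R-spondin RSPO3, the WNT antagonists SFRP5 and APCDD1, PDGFRL, which resembles the PDGF receptor, the IGF-binding protein IGFBP5 and the mesenchymal transcription factor PRRX2.

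**Figure D3:**
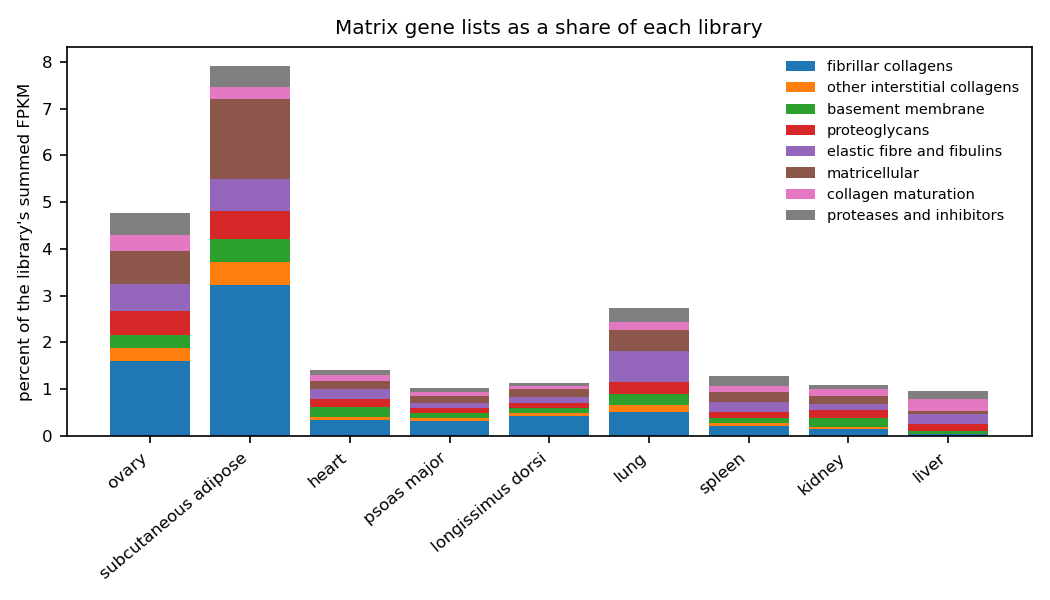
Stacked bars give the share of each library's summed FPKM, in percent, taken by the 8 matrix gene lists in each of the 9 tissues, 1 library per tissue. Adipose tissue reaches 7.92% and ovary 4.77%, lung 2.73% and no other tissue more than 1.41%, and fibrillar collagens form the broadest band in both ovary and adipose tissue.

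A large matrix share did not go with a like order of matrix genes. Over 179 matrix genes at 5 FPKM or more in any of the 9 tissues, Spearman's rho between ovary and adipose tissue was 0.600. Ovary was nearest to kidney (0.716), with adipose tissue ranked 7 of 8, and adipose tissue was nearest to longissimus dorsi (0.896), with ovary ranked 6 of 8. Over 320 signalling genes rho was 0.342. It ranked 4 of 8 for ovary, which was nearest to kidney (0.420), and 8 of 8 for adipose tissue, which was nearest to longissimus dorsi (0.686). Over 12165 genes of all kinds rho was 0.700, and adipose tissue was then the nearest tissue to ovary. Adipose tissue itself was then nearest to heart (0.745), with ovary ranked 5 of 8. By Pearson's r of log2(FPKM + 1) over matrix genes, adipose tissue ranked 6 of 8 for ovary and ovary 4 of 8 for adipose tissue. These are correlations across genes within single libraries, which share their processing and gene lengths, and genes are not independent replicates, so they carry no p-value.

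Fibrillar collagens were dominated in both tissues by types I and III, with adipose tissue ahead, while minor chains divided the pair. Of the 9 fibrillar collagen genes, 3 were called higher in ovary (11.2% of all genes were) and 1 in adipose tissue (4.21%). Their median was -0.66, or -1.18 relative to all genes. It was 0.24 above that of all genes when gene models that overlap another were left out, which removes COL1A1, COL3A1, COL5A2, COL5A3 and COL27A1 and leaves 4 genes. After median-of-ratios scaling, quantile normalisation or centring on the median of all genes, 1 of the 9 was called each way. The type V chains that nucleate collagen fibrils were close for COL5A1 (88.1 FPKM in ovary, 133 in adipose tissue) and COL5A2 (90.8 and 202). COL5A3, the third type V chain, stood at 4.57 FPKM in ovary and 184 in adipose tissue, a difference of -5.05, with psoas major next at 18.9. COL5A3 thus set adipose tissue apart from ovary and from every other tissue. COL2A1, the collagen of cartilage, stood at 42.8 FPKM in ovary and 0.0329 in adipose tissue (lung had 56.6). COL11A1 (11.9 and 1.91) and COL27A1 (12.5 and 2.13), both fibril-forming chains that also occur in cartilage, were higher in ovary and had differences of 2.15 and 2.11. Both fell under 2 in those 3 scalings, which left COL2A1 as the call toward ovary.

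Among the other interstitial collagens, 3 of 11 were called higher in ovary (11.2% of all genes were) and 2 in adipose tissue (4.21%). After median-of-ratios scaling or quantile normalisation none of the 7 that then passed the filter was called higher in ovary and 3 were in adipose tissue, with relative medians of -1.18 and -0.43 in place of 0.32. Type VI collagen forms beaded filaments around cells, and its chains COL6A1 (409 FPKM in ovary, 669 in adipose tissue), COL6A2 (168 and 280.2) and COL6A3 (77.5 and 349) were all highest in adipose tissue and next in ovary. COL6A3 alone of these 3 was called, at -2.16. COL6A6, a further chain of the type, stood at 0.618 FPKM in ovary and 20.9 in adipose tissue. On the ovary side were COL9A2 (7.57 and 0.146) and COL9A3 (6.24 and 0.327), fibril-associated collagens, and COL26A1 (6.8 and 0.0935).

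Basement membrane genes held chains of either tissue. Of 21 genes, 6 were called higher in ovary (28.6%, against 11.2% of all genes) and 3 in adipose tissue (14.3%, against 4.21%). The median was 0.88, or 0.36 relative to all genes. The calls were 6 and 7 after median-of-ratios scaling or centring, and 3 and 3 of 13 without overlapping gene models, where the relative median was -1.24. LAMC3, a laminin gamma chain, stood at 97 FPKM in ovary and 1.29 in adipose tissue (kidney, the next, had 9.62), a difference of 5.42. LAMC1, the widespread gamma chain, stood at 26.4 and 126, a difference of -2.22. The level of LAMC3 was thus 3.68 times that of LAMC1 in ovary and 0.0102 times in adipose tissue. LAMA1, an alpha chain typical of embryonic and some epithelial basement membranes, stood at 27 FPKM in ovary and 0.0458 in adipose tissue, and no other tissue passed 1.94. LAMB1, a beta chain, stood at 38 and 164 (-2.08), and LAMA4, the alpha chain of vessels and fat cells, at 23.7 and 96.3 (-1.98), just short of the 4-fold line.

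Type IV collagen, the network of basement membranes, divided in the same way. COL4A2 stood at 96.4 FPKM in ovary and 409.5 in adipose tissue, a difference of -2.08. The chains of more restricted membranes were all called higher in ovary. COL4A5 stood at 40.9 and 1.52, COL4A6 at 23.3 and 0.302, COL4A4 at 19.7 and 0.555, and COL4A3 at 10.7 and 0.285. Ovary was the highest of the 9 tissues for COL4A5 and COL4A6, while lung exceeded it for COL4A3 (28.5) and COL4A4 (45.6). COL4A4 and COL4A3 lie head to head on chromosome 15, at 128476257 to 128612351 on the minus strand and 128611866 to 128763122 on the plus strand. The strandedness of the counting is not given in the sources used here, so reads from their overlap may have been shared.

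Of 21 proteoglycan genes, 4 were called each way, against 11.2% of all genes toward ovary and 4.21% toward adipose tissue. The median was -0.07, or -0.58 relative to all genes. Calls toward ovary and adipose tissue were 2 and 6 after centring, and 2 and 6 of 20 after median-of-ratios scaling. They were 2 and 4 of 20 after quantile normalisation. DCN, or decorin, the small leucine-rich proteoglycan that coats collagen fibrils, was nearly level, at 1058 FPKM in ovary and 1137 in adipose tissue, against 271 in heart. BGN, or biglycan, was level too (99.7 and 104), close to spleen at 97.6. LUM, or lumican, stood at 3.44 and 37.8 (-3.13), although it lies 34568 bp from DCN on chromosome 5. ASPN, or asporin, stood at 2.17 and 25.5 (-3.06), and its neighbour OGN on chromosome 3 at 62.5 and 79.5 (-0.34). Small leucine-rich proteoglycans in the same gene cluster thus differed in their contrast. GPC3 and GPC4, glypicans that bind growth factors at the cell surface, went opposite ways, at 34.5 and 155 for GPC3 and 20 and 4.1 for GPC4. The latter difference was 2.04.

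Elastic fibre genes were on either side, with 8 of 21 above 0 in difference. Of the 21, 2 were called higher in ovary (9.52%, against 11.2% of all genes) and 4 in adipose tissue (19.0%, against 4.21%). The median was -0.63, or -1.15 relative to all genes. MFAP5, a microfibril glycoprotein, had the lowest difference of all matrix genes, at 0.85 FPKM in ovary and 129 in adipose tissue (-6.14), with heart at 54.9. FBN1, the fibrillin backbone of microfibrils, stood at 18.3 and 88.6 (-2.21), and ELN, or elastin, at 122 and 547 (-2.16), below lung at 921. FBLN2 stood at 15 and 68.8 (-2.12), the reverse of its paralog FBLN1, and FBLN5, needed for elastic fibre assembly, at 13.5 and 55.8 (-1.97). EMILIN1, an elastic fibre glycoprotein, stood at 59.4 and 5.41 (3.24), below spleen at 93. The latent TGF-beta binding proteins leaned to ovary, with LTBP4 at 306 and 139, LTBP1 at 84.2 and 44.9 and LTBP3 at 64.1 and 19.8, none past 4-fold and ovary highest of the 9 tissues for each.

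Matricellular proteins included several of the genes with the largest differences toward adipose tissue. Of 25 genes, 8 were called higher in adipose tissue (32.0%, against 4.21% of all genes) and 4 in ovary (16%, against 11.2%). The median was -1.15, or -1.67 relative to all genes. The relative median was -0.47 over the 32 genes at 1 FPKM or more in either tissue and -0.96 without overlapping gene models. Besides POSTN, CILP, a cartilage intermediate layer protein, stood at 0.659 FPKM in ovary and 51.3 in adipose tissue (-4.98). THBS4, a thrombospondin of muscle and tendon, stood at 12.2 and 144 (-3.46), and ECM1 at 5 and 66 (-3.48), though its gene model also contains TARS2. SPP1, or osteopontin, which macrophages make in quantity, stood at 7.34 and 80 (-3.28) beside the macrophage sums given above, 85.2 and 415. On the ovary side were SPARCL1, a SPARC paralog, at 321 and 36.2 (3.12), NPNT, an integrin ligand of epithelial basement membranes, at 49.7 and 1.35 (4.43), and MATN2 at 194 and 27.6 (2.77). SPARC and SPARCL1 therefore had opposite contrasts, although that of SPARC, -1.68, did not reach 4-fold on the deposited scale. TNN, a tenascin, stood at 7.1 and 0.0177, with no other tissue above 0.111.

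Enzymes that mature collagen differed by small margins. Of 23 genes, 1 was called higher in ovary (11.2% of all genes were) and none in adipose tissue (4.21%). The median of 0.99 lay 0.47 above that of all genes. After median-of-ratios scaling or quantile normalisation the counts were 0 and 2 of 22. The called gene was FKBP14, an endoplasmic reticulum isomerase for collagen, at 13.1 and 1.45 FPKM. SERPINH1, the collagen chaperone HSP47, stood at 187 and 93.5, P4HA1, a prolyl hydroxylase subunit, at 41.9 and 10.4, and FKBP10 at 60.6 and 23.6. Their collagen substrates COL1A1, COL1A2 and COL3A1 had the opposite order, with more in adipose tissue. LOXL2, which cross-links collagen, stood at 6.33 and 26.6 (-1.91), and LOX at 14.2 and 19.4.

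Proteases and their inhibitors split as well. Of 31 genes, 4 were called higher in ovary (12.9%, against 11.2% of all genes) and 8 in adipose tissue (25.8%, against 4.21%). SERPINE2, an inhibitor of thrombin and plasminogen activators, stood at 130.2 FPKM in ovary and 6.61 in adipose tissue (4.11), and HTRA3, a secreted serine protease, at 201 and 14 (3.75), with the next tissues at 42.3 and 15.5. TIMP1, a metalloproteinase inhibitor, stood at 85.3 and 17.1 (2.25). On the adipose side were SERPINF1, the anti-angiogenic factor PEDF, at 48 and 273 (-2.48), PLAU, the urokinase, at 1.39 and 16 (-2.83), and MMP27 at 0.137 and 12 (-3.51). CTSS, a macrophage cathepsin, stood at 9.15 and 90.6, but its gene model contains CTSK and HORMAD1. The gelatinase MMP2 was nearly level at 351 and 393, and its activator MMP14 stood at 165 and 92.6. MMP2, its inhibitor TIMP2 (138 and 170.1) and MMP14 were higher in this pair than in the other 7 tissues.

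Receptors for the matrix were near the median of all genes, at 0.54. Of 24 genes, 4 were called higher in ovary (16.7%, against 11.2% of all genes) and 2 in adipose tissue (8.33%, against 4.21%). DDR1, a collagen receptor kinase of epithelia, stood at 59.6 FPKM in ovary and 1.78 in adipose tissue (4.45), while its mesenchymal paralog DDR2 was 14.3 and 10.6. DAG1, the dystroglycan that binds laminin, stood at 78.8 and 10.9 (2.74). ITGA7, a laminin-binding integrin chain of muscle, stood at 4.27 and 138 (-4.72), higher in adipose tissue than in heart, its next tissue, at 63.5. ITGBL1, an integrin-like secreted protein, stood at 1.46 and 32.6 (-3.77). ITGA3, another laminin-binding chain, went the other way, at 8.64 and 0.741. Skeletal muscle markers summed to 3.20 in ovary and 44.3 in adipose tissue beside the ITGA7 and THBS4 values.

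**Figure D4:**
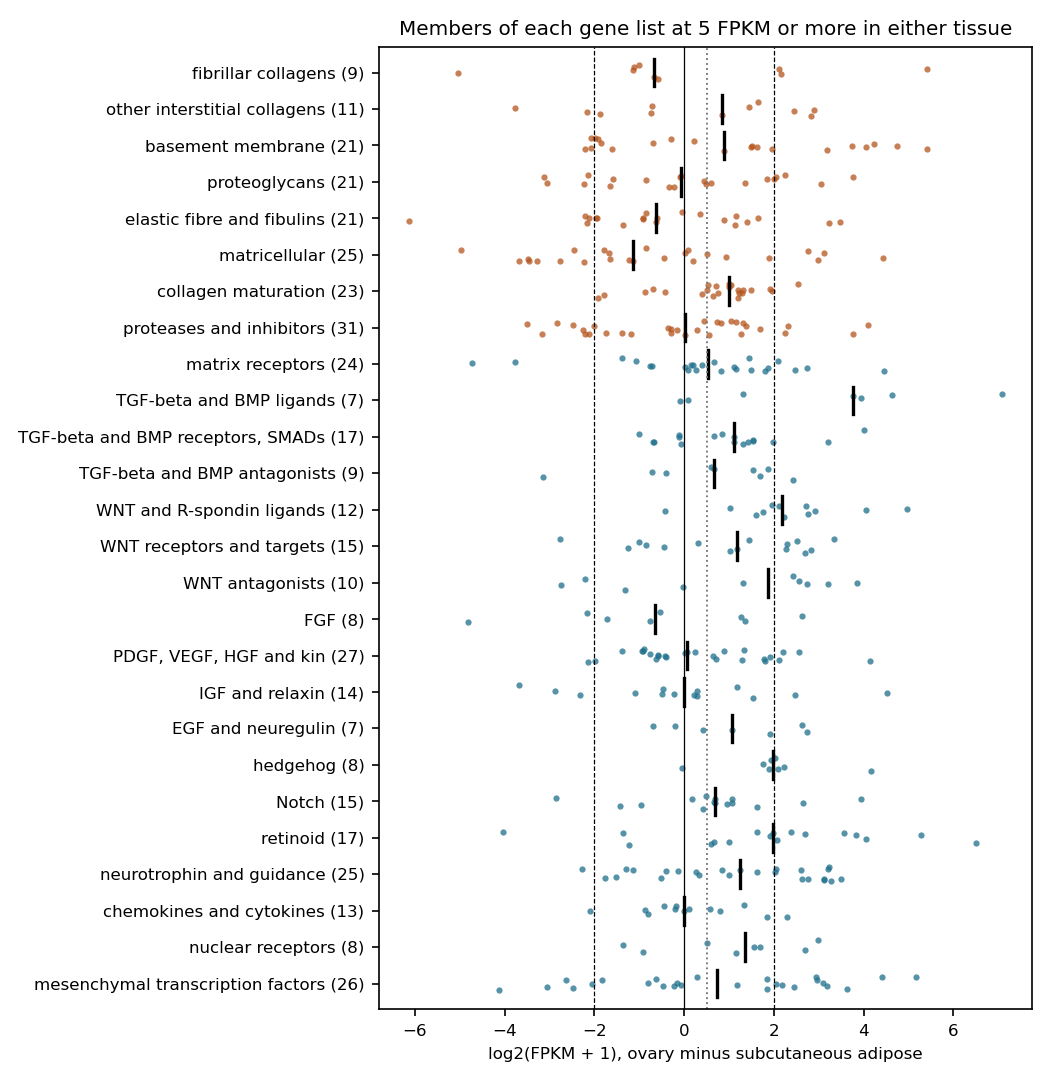
Each point is a gene at 5 FPKM or more in either tissue, placed by its difference in log2(FPKM + 1), ovary minus subcutaneous adipose tissue, with 1 row per gene list (number of genes in parentheses); thick bars are list medians, the dotted line is the median of all 9508 genes and dashed lines mark a difference of 2 either way. TGF-beta and BMP ligands (median 3.77), WNT ligands (2.17), retinoid genes (1.99) and hedgehog genes (1.98) lie farthest to the ovary side, and matricellular genes (-1.15) farthest to the adipose side.

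Among TGF-beta family ligands, the calls toward ovary were the inhibin, activin and anti-Mullerian hormone genes. Of 7 ligand genes, 4 were called higher in ovary (11.2% of all genes were) and none in adipose tissue. All 4 passed the 5 FPKM filter in ovary alone, where a large difference is partly built in. The relative median was 3.25. That median was 0.85 over the 16 genes at 1 FPKM or more in either tissue and 0.81 with genes listed at 0 left out. INHA, the inhibin alpha subunit, stood at 135 FPKM in ovary and was listed at 0 in adipose tissue, and AMH, the anti-Mullerian hormone, stood at 23.9 and was listed at 0. INHBB and INHBA, the beta subunits of inhibins and activins, stood at 28 and 0.894, and at 15.4 and 0.201. INHA and AMH are themselves granulosa markers and form most of that list's sum in ovary, 242 FPKM, against 21.1 in adipose tissue. The same list summed to 278 FPKM in kidney and 222 in liver, so its sum is not particular to ovary. TGFB1 (7.11 and 6.67) and TGFB2 (6.83 and 7.35) were level, and TGFB3 stood at 13.3 and 4.71. The receptors of these ligands were close in level, with TGFBR1 at 15.8 and 17.3 and TGFBR2 at 47.9 and 52.1.

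Among the 17 receptor and SMAD genes, 2 were called, both higher in ovary (11.8%, against 11.2% of all genes). AMHR2, the receptor of anti-Mullerian hormone, stood at 18.1 FPKM in ovary and 0.189 in adipose tissue (4.01), and BMPR1B, a BMP receptor of follicles, at 9.14 and 0.0981 (3.21). Both were highest in ovary of the 9 tissues. ACVR1, an activin and BMP receptor, stood at 21.4 and 4.64 (1.99), just under the line. Antagonists split, with BAMBI, a decoy receptor, at 17.4 and 2.42 (2.42), and CHRDL1, a secreted BMP antagonist of adipose tissue, at 8.69 and 84.8 (-3.15). FST, or follistatin, which binds activin, stood at 50.7 and 16.9, ahead of lung at 11.6.

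WNT ligands and R-spondins, which amplify WNT signals, were higher in ovary with RSPO3 as the exception. Of 12 genes, 7 were called higher in ovary (11.2% of all genes were) and none in adipose tissue, with a median of 2.17, or 1.66 relative to all genes. The called genes named below passed the 5 FPKM filter in ovary alone, where a large difference is partly built in. With a pseudocount of 5 the count toward ovary was 2 of 12. It was 3 of 5 after median-of-ratios scaling or quantile normalisation, and 5 of 10 with genes listed at 0 left out. RSPO2 stood at 30.1 FPKM in ovary and was listed at 0 in adipose tissue, and RSPO1, which directs ovary differentiation in mice and humans, stood at 5.82 and was listed at 0. WNT6 stood at 23.2 and 0.456 (4.06), with no other tissue above 0.314. WNT4, another such factor, stood at 8.16 and 0.213 (2.92), and WNT2B and WNT2 at 6.4 and 0.581 and at 6.39 and 0.702. Ovary was the highest of the 9 tissues for each of these 6 genes. RSPO3 stood at 6.3 in ovary and 8.8 in adipose tissue, its highest level, with lung next at 1.9.

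On the deposited scale, 6 of 15 WNT receptor and target genes were called higher in ovary (11.2% of all genes were). The count toward adipose tissue was 1 (4.21% of all genes). These counts were 1 and 1 of 11 after median-of-ratios scaling or quantile normalisation. AXIN2, a feedback target of beta-catenin, stood at 22.4 FPKM in ovary and 1.3 in adipose tissue (3.34), LEF1, a beta-catenin partner, at 6.77 and 0.0884 (2.84), and NKD1, another feedback inhibitor, at 12.9 and 1.83 (2.30). The gene on the adipose side was FZD4, a Frizzled receptor of vessels, at 10.5 and 77.1 (-2.76), where endothelial markers summed to 128 and 438. The median of this list, 0.66 above that of all genes, fell to -0.11 after median-of-ratios scaling and -0.03 after quantile normalisation. TCF7L2 and TCF7L1, further beta-catenin partners, stood at 9.92 and 20.9 and at 18.6 and 34.1, the reverse of LEF1.

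WNT antagonists were called in either direction. Of 10 genes, 5 were called higher in ovary (11.2% of all genes were) and 2 in adipose tissue (4.21%). The counts were 2 and 2 of 9 after median-of-ratios scaling. WIF1, which binds WNT ligands, stood at 14 FPKM in ovary and 0.0393 in adipose tissue (3.85), DKK3 at 36.7 and 3.12 (3.19), FRZB at 19.2 and 2.42 (2.56) and SFRP2 at 13.7 and 1.73 (2.42). SFRP5, a secreted Frizzled-related protein known from fat, stood at 11.9 and 85.9 (-2.75), and SFRP4 at 3.69 and 20.6 (-2.21). SFRP1 was level at 12.2 and 12.5. Members of the secreted Frizzled-related family thus fell on each side and at the centre.

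**Figure D5:**
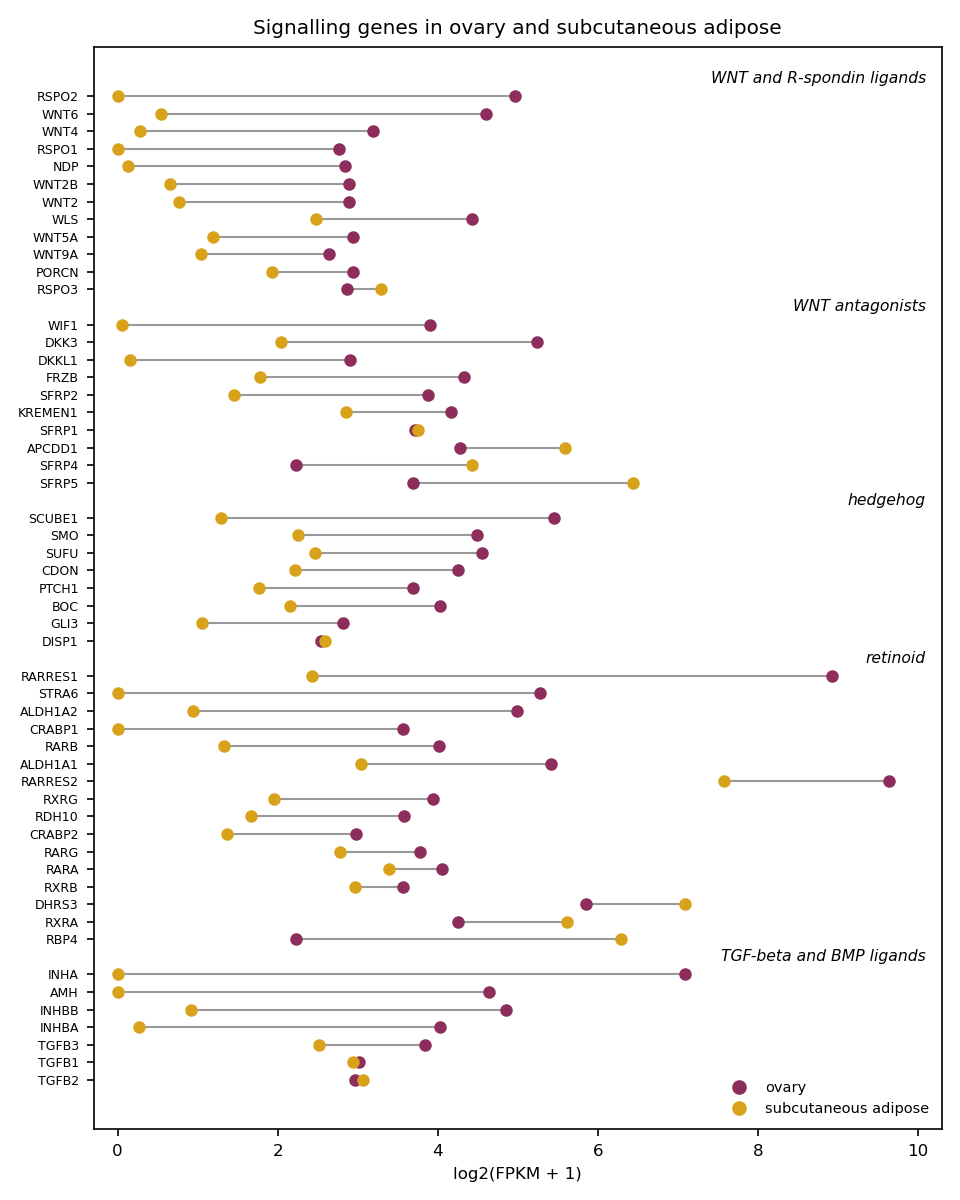
Each row is a gene at 5 FPKM or more in either tissue (1 retinoid gene is not shown), with log2(FPKM + 1) in ovary (purple) and in subcutaneous adipose tissue (yellow) joined by a line, for WNT ligands, WNT antagonists, hedgehog, retinoid and TGF-beta family ligand genes, 1 library per tissue. Ovary is to the right in most rows, RSPO3, APCDD1, SFRP4, SFRP5, DHRS3, RXRA and RBP4 show clear gaps the other way, and a point at 0 marks a gene listed at 0 FPKM.

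Hedgehog genes were higher in ovary in 7 of 8 cases, and 4 were called (11.2% of all genes were). All 4 passed the 5 FPKM filter in ovary alone, where a large difference is partly built in. SCUBE1, of a family that helps to release hedgehog ligands, stood at 42.9 FPKM in ovary and 1.45 in adipose tissue (4.16). SMO, the signal transducer, stood at 21.5 and 3.78 (2.23), SUFU, its downstream inhibitor, at 22.4 and 4.51 (2.09), and CDON, a co-receptor, at 18.1 and 3.65 (2.03). PTCH1, both receptor and target, stood at 12 and 2.39 (1.93). With the median of all genes set to 0 only SCUBE1 stayed past 4-fold. The list median was 1.98, or 1.47 relative to all genes, and SMO, PTCH1, SCUBE1, CDON and SUFU were each highest in ovary of the 9 tissues. The ligand genes SHH, IHH and DHH did not reach 5 FPKM in either tissue.

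Retinoid genes, which take up, store and oxidise vitamin A, were led by RARRES1. 8 of 17 were called higher in ovary (11.2% of all genes were) and 1 in adipose tissue (4.21%). The median was 1.99, or 1.47 relative to all genes. The ovary calls named below passed the 5 FPKM filter in ovary alone, where a large difference is partly built in. With a pseudocount of 5 the counts toward ovary and adipose tissue were 5 and 1 of 17. They were 6 and 1 of 16 after median-of-ratios scaling, 8 and 1 of 16 after quantile normalisation and 6 and 1 of 17 after centring. RARRES1, a retinoic acid responsive gene, stood at 487 FPKM in ovary and 4.37 in adipose tissue (6.50), with spleen next at 30.8. It lies on chromosome 13 at 98461316 to 98506380. STRA6, the receptor for retinol uptake, stood at 37.8 in ovary and was listed at 0 in adipose tissue, with kidney higher at 64.9. ALDH1A2, which makes retinoic acid, stood at 30.7 and 0.918 (4.05). CRABP1, which binds retinoic acid, stood at 10.8 and was listed at 0 in adipose tissue. RARB, a receptor and target of retinoic acid, stood at 15.2 and 1.51 (2.69). The exception was RBP4, the serum retinol carrier, at 3.71 and 76.9 (-4.05), with liver at 1568, where liver plasma genes summed to 59.6 in ovary and 308 in adipose tissue.

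Guidance and neurotrophin genes also leaned to ovary, with 11 of 25 called there (11.2% of all genes were) and 1 in adipose tissue (4.21%). Their median was 0.73 above that of all genes. Calls were 7 and 2 of 21 after median-of-ratios scaling and 7 and 3 of 21 after quantile normalisation. Centring gave 9 and 3 of 25, and a pseudocount of 5 gave 3 and 0. Among the ovary calls named below, SLIT3 alone reached 5 FPKM in both tissues, and the others passed the filter in ovary alone. SLIT3, a secreted guidance ligand, stood at 83.4 FPKM in ovary and 6.44 in adipose tissue (3.50), and its receptors ROBO1 and ROBO2 at 23.8 and 1.87 (3.11) and at 13.1 and 0.54 (3.20). All 3 were highest in ovary of the 9 tissues. ROBO4, the endothelial member of the receptor family, stood at 2.95 and 18 (-2.27). EPHB2, an ephrin receptor, stood at 24.5 and 1.94 (3.12) and EFNB3, an ephrin ligand, at 9.21 and 0.083 (3.24). UNC5C, a netrin receptor, stood at 9.11 and 0.0479 (3.27) and lies 8253 bp from BMPR1B on chromosome 8, whose difference was 3.21.

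Other growth factors did not share 1 direction. The FGF list had 1 of 8 genes called higher in ovary (11.2% of all genes were) and 2 in adipose tissue (4.21%). KLB, the co-receptor of endocrine FGFs in fat and liver, stood at 0.233 FPKM in ovary and 33.7 in adipose tissue (-4.81), with liver next at 6.16. FGFR4 stood at 5.61 and 0.0716, and FGFR1, the main mesenchymal FGF receptor, at 28.8 and 42.6. Among PDGF, VEGF and HGF genes, 4 of 27 were called higher in ovary (14.8%) and 1 in adipose tissue (3.70%), near the shares of all genes. The oocyte marker KIT (2.11) was among the ovary calls. The heparin-binding factors PTN (161 and 8.15, a difference of 4.15) and MDK (268 and 44.7, 2.56) were highest in ovary of the 9 tissues. VEGFA, the main vessel growth factor, stood at 9 and 43 (-2.14), and its receptor KDR at 18.3 and 49.8. PDGFRB, a receptor of pericytes and fibroblasts, was level at 36.9 and 36.4, and PDGFRA stood at 60.3 and 23.5.

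In the IGF list 2 of 14 genes were called higher in ovary (11.2% of all genes were) and 3 in adipose tissue (4.21%). IGFBP2, an IGF binding protein, stood at 84.1 FPKM in ovary and 2.7 in adipose tissue (4.53), while its neighbour IGFBP5, 5434 bp away on chromosome 15, was closer between the tissues (1.53) and was highest in ovary and next in adipose tissue of the 9. GHR, the growth hormone receptor, stood at 5.89 and 49.9 (-2.89), the latter above liver at 16.9. IRS2, an insulin receptor substrate, stood at 11.9 in adipose tissue and was listed at 0 in ovary. IGF1 stood at 7.21 and 16.6, and IGF2 at 37.7 and 31. In the EGF list, TGFA (6.01 and 0.0556) and NRG2 (5.48 and 0.0482) were called higher in ovary, though neither passed the filter after median-of-ratios scaling, and in the Notch list HEY2, a Notch target, stood at 17.3 and 0.19 (3.94) and MFNG, which modifies Notch, at 4.95 and 42 (-2.85). Among 13 stromal chemokine and cytokine genes, ACKR3 (5.62 and 0.355) was called higher in ovary and CCL19 (1.8 and 11) in adipose tissue, and CXCL12, the main stromal chemokine, stood at 29.2 and 33.8.

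Transcription factors of mesenchyme were called in either direction. Of 26 genes, 10 were called higher in ovary (38.5%, against 11.2% of all genes) and 5 in adipose tissue (19.2%, against 4.21%). The counts were 5 and 6 of 23 after median-of-ratios scaling and 7 and 6 after quantile normalisation or centring. The relative median, 0.21, was -0.41 and -0.49 in the first and the next of these. WT1, a factor of gonad and kidney mesoderm, stood at 36 FPKM in ovary and 0.0251 in adipose tissue (5.18), GATA4 at 21.2 and 0.045 (4.41) and GATA6 at 22.7 and 0.917 (3.63), both factors of gonad and heart. LHX9, a gonad factor, stood at 8.05 and was listed at 0 in adipose tissue. TBX15, a factor of subcutaneous fat and muscle, stood at 0.267 and 21.1 (-4.12), EBF2 and EBF1, factors of adipocyte precursors, at 1.15 and 16.7 (-3.05) and at 3.58 and 24.6 (-2.48), and MEOX2, a mesodermal homeobox gene, at 0.92 and 10.9 (-2.63). PRRX2 was level at 5.57 and 5.88, with lung next at 1.2. Of the nuclear receptors, ESR1, the oestrogen receptor alpha, stood at 14.8 and 1.46 (2.68) and NR2F1 at 48.6 and 5.23 (2.99), while NR3C1, the glucocorticoid receptor, stood at 7.35 and 14.8.

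In several families, paralogs were called in opposite directions. Ovary against adipose tissue read COL4A3, COL4A4, COL4A5 and COL4A6 against COL4A2, LAMC3 against LAMC1, GPC4 against GPC3, FBLN1 against FBLN2 and ADAMTS17 against ADAMTS4. It further read ITGA3 against ITGA7, SFRP2 against SFRP4 and SFRP5, and ROBO1 and ROBO2 against ROBO4. ADAMTS17 and ADAMTS4, secreted metalloproteinases, stood at 6.64 FPKM in ovary and 0.544 in adipose tissue, and at 0.419 and 5.52. The calls of GPC4, ITGA3 and SFRP2 did not reach 4-fold after median-of-ratios scaling, quantile normalisation or centring on the median of all genes, nor did that of COL4A2 after quantile normalisation or that of ADAMTS17 after centring. Several members lay so close to the 4-fold line that their call is marginal: SEMA3B (2.02), CDON (2.03) and SEMA3D (2.04) just inside on the ovary side and RXRG and SPOCK2 (both 1.99) just outside, with CTSL (-2.0001) and KLF4 (-2.06) just inside on the adipose side and VEGFD (-1.98) just outside.

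After the oocyte, granulosa, adipocyte and lipid lists were left out, the 10 genes with the largest difference toward ovary were CHGA, DPPA5, FKBP6, WFDC2, RARRES1, KPNA7, CTRB2, TKTL1, BAIAP2L1 and GTSF1. Toward adipose tissue they were PCK1, THRSP, CD209, SGK2, MIR9810, AGT, MYOC, PC, CA3 and F2RL2. The model of PC contains LRFN4, that of MIR9810 overlaps MPC2 and that of F2RL2 overlaps IQGAP2. On the ovary side, CHGA overlaps RIN3 and KPNA7 overlaps an unnamed model. MIR9810 stood at 138 FPKM in adipose tissue and was listed at 0 in ovary, with heart higher at 254, and reads of MPC2 may have been shared with it. CHGA, a granin of endocrine cells, led the ovary side at 157 FPKM against 0.02 in adipose tissue, and DPPA5, a gene of germ and pluripotent cells, stood at 133 and was listed at 0 in adipose tissue. FKBP6 and GTSF1, which act in germ cells, stood at 109 and 0.00108, and at 46.2 and listed at 0. WFDC2, an epithelial secreted protein, stood at 97.7 and was listed at 0 in adipose tissue, with kidney (335) and lung (222) higher. PCK1, the gluconeogenic and glyceroneogenic enzyme, led the adipose side at 444 FPKM and was listed at 0 in ovary, with kidney higher at 1524. AGT, the angiotensin precursor, stood at 1.2 and 292, MYOC at 0.4 and 157, and CD209, a lectin of macrophages and dendritic cells, at 0.8 and 295. RARRES1 was the gene of the matrix and signalling lists that ranked among these 10 on the ovary side, and none did on the adipose side. INHA, a signalling gene listed at 0 in adipose tissue, had a larger difference than RARRES1 but was left out of this ranking as a granulosa marker.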

How the data were processed

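The authors deposited 1 value per gene and library, read here as FPKM, and the submitters' processing notes list StringTie 1.2.2, TopHat2 2.1.0 and the build Sscrofa11.1. The header gives no unit, so another unit scaled within each library is possible. What each step did, the annotation and the strandedness are not stated there. Of 25880 genes, 14857 took a symbol by Ensembl identifier and 1640 from a RefSeq gene with reciprocal overlap of 0.5 or more, 63.7% together.

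Levels were compared as log2(FPKM + 1), with pseudocount 1, over genes at 5 or more in either library. This understates the change of low genes. A difference of 2 was called. The members and lists were chosen with earlier results of these data known. Named genes are list members, marker genes, the 10 largest differences each way outside germ cell and lipid lists, and paralogs called in opposite directions; those described were picked from them with their values in view. No count model or test was run, since there are no counts and 1 library per tissue. Depth came from the steps between low values of short genes (400 to 1500 bp) and covers counting only. Alternatives varied pseudocount, filter, threshold, scaling and gene models. 1 list member is counted but not reported by name here. The procedure was tested on simulated data. Software was Python 3.11.15 (matplotlib 3.10.9, scipy 1.17.1, pandas 2.3.3, numpy 2.4.6).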

Additional observations from a re-analysis of the deposited data

How the results depend on the processing

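Among the members that still passed the filter, no called member changed direction under the scaling alternatives, which left 56 of the 424 untested with median-of-ratios factors and 46 with quantile normalisation. How many genes were called moved. The counts of genes called higher in ovary and in adipose tissue were 1067 and 400 as reported. They were 299 and 223 with a pseudocount of 5 and 2880 and 887 at a threshold of 1. At a threshold of 3 they were 421 and 180, and 704 and 355 with a filter of 10 FPKM. Scaling to a sum of 1000000 gave 2030 and 597, and median-of-ratios scaling 538 and 531. Setting the median of all genes to 0 gave 700 and 574, quantile normalisation 611 and 574, and leaving out overlapping gene models 666 and 248. The share of calls toward ovary, 72.7% as reported, was 57.3% with a pseudocount of 5, 50.3% with median-of-ratios scaling, 54.9% with the median set to 0 and 51.6% with quantile normalisation. Leaving out genes listed at 0 in either tissue, an alternative chosen after seeing the data, gave 961 and 374. Relative to all genes, the medians of 13 of the 26 lists changed sign under at least 1 alternative. Of the lists 1.5-fold or more from all genes, these were FGF genes (0.0754 with a filter of 1), TGF-beta and BMP receptors (-0.0936 with a filter of 10), WNT receptors and targets (-0.93 with a filter of 10, -0.11 with median-of-ratios scaling, -0.0349 with quantile normalisation) and fibrillar collagens (0.24 without overlapping models). The other 9 lay nearer to all genes: other interstitial collagens, basement membrane, proteases and inhibitors, matrix receptors, TGF-beta and BMP antagonists, PDGF, VEGF and HGF, EGF, Notch and mesenchymal transcription factors. The cause was not tested, except that a stricter filter or fewer gene models tests fewer genes. Of the 424 members, 103 were called higher in ovary and 51 in adipose tissue as reported. A pseudocount of 5 took 83 of these under the 4-fold line and left 42 and 29. Setting the median to 0 took 29 members under the line and 20 past it. No paired analysis was possible because each tissue has 1 library. With 1 library of each tissue, differences between animals, dissections and tissues cannot be told apart.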
